A study of Mus musculus with 7 samples.

Results

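H3K4me1-marked regions that lay inside protein-coding genes and did not carry Runx3 were examined in resting CD8-positive T cells (CD8-TC) from mouse spleen. They were selected on position, overlap and width. A region of the deposited H3K4me1 list was taken when it shared no base with a Runx3-bound region, was not among the widest regions of the list (7340 bp and over), and had its midpoint inside a protein-coding gene body and at least 5 kb from every annotated transcription start site (TSS). Of the 76705 H3K4me1-marked regions, 22272 (29.0%, 95% Wilson interval 28.7 to 29.4%) met these conditions, and they covered 28.8 Mb of the 109 Mb covered by the list. The steps left 72492 regions without Runx3, 72076 after removal of the widest, 38879 at least 5 kb from every TSS and 22272 inside a gene. These intragenic regions without Runx3 are called member regions here. For comparison, 16607 regions met the same conditions between genes, and 1013 regions met the same conditions inside genes but overlapped Runx3.

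The libraries came from wild-type ICR mice, whose age and sex the labels do not give. Splenic cells of 18 mice were pooled and isolated by positive selection on anti-CD8 beads, with a purity above 95% per the labels. The 7 libraries were 3 of Runx3 (2 biological repeats), 2 of H3K4me1 and 2 of non-immune rabbit serum (NIS). Each antibody has 1 list of regions, called on joined repeats against NIS. No treatment or genotype was compared, the lists carry neither heights nor read counts, and neighbouring regions are not independent, so that every interval and p-value below covers counting error over regions and not the spread between repeats.

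Monomethylation of histone H3 at lysine 4 is laid down mainly by the methyltransferases Mll3 and Mll4 and marks active and poised enhancers, the remote elements that set when and where a gene is transcribed. Many enhancers lie in introns, either of the gene they act on or of a neighbour. Runx3, a RUNX-family transcription factor, shapes the CD8 lineage and the cytotoxic program of these cells, and ETS-family factors such as Ets1 and Fli1 are frequent partners of RUNX proteins on T-cell enhancers.

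The central 200 bp of the widest member region in each of 6 genes are shown because these genes held the most member regions among the T-cell gene lists described below. Coordinates are mm9, the plus strand is given, and capitals mark RUNX matches (TGTGGT and its variants TGTGGC and TGCGGT and TGCGGC) and ETS matches (AGGAAA or AGGAAG or CGGAAA or CGGAAG) on either strand. A base may belong to matches of both motifs.
Bach2, chr4:32392101-32392300: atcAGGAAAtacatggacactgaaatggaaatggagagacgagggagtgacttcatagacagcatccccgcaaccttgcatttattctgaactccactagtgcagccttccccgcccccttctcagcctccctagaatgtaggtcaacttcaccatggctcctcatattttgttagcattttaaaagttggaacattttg
Foxp1, chr6:99124277-99124476: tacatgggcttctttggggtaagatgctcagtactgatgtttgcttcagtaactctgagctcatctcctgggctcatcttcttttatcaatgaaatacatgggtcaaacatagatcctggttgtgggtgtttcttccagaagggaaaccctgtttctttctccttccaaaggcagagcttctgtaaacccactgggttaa
Runx1, chr16:92811658-92811857: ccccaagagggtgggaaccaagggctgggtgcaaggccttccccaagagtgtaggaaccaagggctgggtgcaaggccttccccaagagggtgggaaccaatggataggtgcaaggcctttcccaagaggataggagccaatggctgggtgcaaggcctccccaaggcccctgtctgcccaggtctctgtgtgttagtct
Lef1, chr3:130869438-130869637: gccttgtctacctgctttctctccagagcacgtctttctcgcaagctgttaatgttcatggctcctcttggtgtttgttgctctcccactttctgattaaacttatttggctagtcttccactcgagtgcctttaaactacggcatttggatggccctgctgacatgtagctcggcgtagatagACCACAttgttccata
Bcl11b, chr12:109162711-109162910: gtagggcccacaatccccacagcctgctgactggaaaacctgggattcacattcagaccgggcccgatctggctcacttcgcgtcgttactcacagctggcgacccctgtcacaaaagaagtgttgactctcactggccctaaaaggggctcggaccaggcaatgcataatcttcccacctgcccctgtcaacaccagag
Fyn, chr10:39207321-39207520: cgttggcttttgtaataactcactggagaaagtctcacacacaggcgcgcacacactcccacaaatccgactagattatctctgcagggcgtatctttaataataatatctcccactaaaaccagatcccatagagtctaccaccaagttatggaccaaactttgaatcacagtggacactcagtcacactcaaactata
Only the windows of Bach2 (1 ETS match) and Lef1 (1 RUNX match) held a match. Across all member regions the same window held both motifs in 17.3% and neither in 32.8%.

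Other member regions of these genes held more matches. The windows with the most RUNX and ETS matches in Bach2, Foxp1 and Lef1 are given below. They were picked for their matches and illustrate what the counts refer to.
Bach2, chr4:32484981-32485180: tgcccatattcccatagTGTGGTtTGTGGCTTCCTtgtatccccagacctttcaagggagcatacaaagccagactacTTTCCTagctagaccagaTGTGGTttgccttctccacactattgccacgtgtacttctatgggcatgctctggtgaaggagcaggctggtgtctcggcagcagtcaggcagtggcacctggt
Foxp1, chr6:99138357-99138556: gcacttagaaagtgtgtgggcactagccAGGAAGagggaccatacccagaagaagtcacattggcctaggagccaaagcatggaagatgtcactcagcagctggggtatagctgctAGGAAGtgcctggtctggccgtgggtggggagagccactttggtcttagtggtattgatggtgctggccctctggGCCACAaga
Lef1, chr3:130901822-130902021: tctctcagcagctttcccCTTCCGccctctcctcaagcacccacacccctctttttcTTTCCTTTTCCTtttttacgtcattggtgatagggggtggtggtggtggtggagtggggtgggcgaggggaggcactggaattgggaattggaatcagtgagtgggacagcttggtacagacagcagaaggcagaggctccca
The Bach2 window lay in a region 474 bp wide, 159 kb from the start of the gene, and held 3 RUNX and 2 ETS matches. The Foxp1 window lay in a region of 4108 bp and held 1 RUNX and 2 ETS matches. The Lef1 window, in a region of 921 bp, held 3 ETS matches. In Bach2, 13 of 46 member regions held a RUNX match in this window and 17 an ETS match. These were 15 and 20 of 45 in Foxp1 and 14 and 12 of 34 in Lef1. They were 8 and 16 of 36 in Runx1, 11 and 12 of 33 in Bcl11b and 6 and 13 of 32 in Fyn. Over all member regions 33.3% held a RUNX match and 51.2% an ETS match.

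The label of the cells was set against marker genes by the share of each whole gene body covered by H3K4me1, at any distance from a TSS and with or without Runx3. The gene of the T-cell receptor subunit Cd3e was covered over 36.0%, Cd3d over 49.9%, Cd8a over 31.5% and Cd8b1 over 51.1%. The mark was also present on genes of B cells. The antigen-receptor subunit genes Cd79a and Cd79b were covered over 53.8% and 52.8%. All 20 B-cell genes examined were touched by an H3K4me1-marked region (8.69 to 64.7% of the body, median 32.2%), as were all 30 genes of T-cell receptor signalling (7.75 to 82.1%, median 44.2%). Of all 22350 protein-coding genes, 62.4% were touched by an H3K4me1-marked region. A Runx3-bound region touched 22 of those 30 genes and 3 of the 20 B-cell genes, beside 10.4% of all protein-coding genes. Gene length was not accounted for, and of 20 neuronal genes, with a median of 1074 kb of eligible length, 12 were touched by Runx3 and 8 by H3K4me1. Of 16 myeloid genes, 12 were touched by H3K4me1 (0 to 98.0% of the body, median 10.6%). Lyz2, which encodes lysozyme, had none, whereas Cd14, the lipopolysaccharide co-receptor, was covered over 98.0% of its 1.66 kb, Itgam, an integrin subunit, over 22.7% and Csf1r, the receptor of the macrophage growth factor, over 18.1%. How much B cells or myeloid cells among the selected cells contributed to the regions described below was not tested.

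The member regions had a median width of 904 bp (order-statistic interval 891 to 914 bp), and the middle 80% lay between 456 and 2645 bp. The widest, in the first intron of Gng2 (a G-protein gamma subunit), measured 7338 bp and the narrowest 256 bp. The narrowest region left out for width measured 7340 bp, and 254 of the regions left out met every other condition. Regions between genes had a median of 886 bp (874 to 896 bp). Member regions reached the pooled median of 894 bp in 50.5%, against 49.4% between genes, and 808 of them (3.63%) reached 4000 bp, against 2.28% between genes. Intragenic regions with Runx3 had a median of 2511 bp, and a wider region is more likely to overlap Runx3. Widths are given without a test because both conditions of the choice, the limit on width and the lack of Runx3, bear on them.

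The 10 widest member regions, between 7235 and 7338 bp, lay in Gng2, Pou2af1, Bckdha, Ssh2, Ebf1, Ccnd3, Ubac2, Pgs1, Eif2c2 and Dock11. Pou2af1 and Ebf1 encode B-cell transcriptional regulators, Ccnd3 encodes the lymphocyte cyclin D3, and Dock11 encodes an activator of the GTPase Cdc42. The region in Ccnd3 (chr17:47645870-47653140, first intron) lay 232 bp from the nearest Runx3-bound region, whereas the one in Ebf1 (chr11:44704792-44712065, a later intron) lay 954076 bp from it. Of these 10 regions, 6 were in first introns, 3 in later introns and 1 in a coding exon.

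The spacing of H3K4me1-marked regions was compared between the sets. From a member region, the nearest other one was a median of 0.699 kb away (interval 0.665 to 0.729 kb), against 1.36 kb (1.26 to 1.45 kb) for regions between genes and 0.345 kb (0.299 to 0.435 kb) for intragenic regions with Runx3. A neighbour within 1 kb was found for 12328 member regions (55.4%), for 46.3% of regions between genes and for 64.7% of intragenic regions with Runx3. Joined at gaps of up to 1000 bp, the member regions fell into 15262 groups, of which 9944 were single regions and 669 held 5 or more H3K4me1-marked regions. The group with the most regions, 25 of which 21 were member regions, spanned 53283 bp of Lef1 (chr3:130827510-130880792), the gene of a Wnt-pathway transcription factor needed for early T-cell development. Next came 20 regions over 93876 bp of Mbnl1, which encodes a splicing regulator. Groups of 12 regions, all of them member regions, lay in Rap1a, Bcl11b and Bank1 and held no Runx3 overlap.

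Member regions were usually far from Runx3. The median distance to the nearest Runx3-bound region was 83.7 kb (interval 81.3 to 85.9 kb), close to the 81.7 kb of regions between genes (79.2 to 84.2 kb). A Runx3-bound region lay within 10 kb of 12.8% of member regions and within 1 kb of 216 (0.970%). The closest was 2 bp away and 27 were within 100 bp. Groups that also held a Runx3-overlapping region contained 1508 member regions (6.77%). The share with Runx3 within 10 kb was 11.4% among member regions of 200 to 600 bp and 19.8% among those of at least 4000 bp.

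Position within genes was examined next, per length of gene body that could hold a member region (eligible length, at least 5 kb from every TSS). Only long gene bodies reach the far distances, so that distance and gene length are mixed, and the part of length was not tested. Pooled over genes, the density was highest near the start of the gene. It was 58.6 member regions per Mb (exact Poisson interval 56.5 to 60.7) at 5 to 10 kb from the start of the gene that held them and 50.5 (49 to 52.1) at 10 to 20 kb. It was then 39.6 per Mb at 20 to 50 kb, 31.8 at 50 to 100 kb, 20.9 at 100 to 200 kb and 10.1 (9.64 to 10.6) beyond 200 kb. No adjacent pair of these intervals overlapped. Intragenic regions with Runx3 numbered 1.95 per Mb (1.58 to 2.38) at 5 to 10 kb, 2.45 (2.13 to 2.81) at 10 to 20 kb and 0.471 (0.378 to 0.579) beyond 200 kb. Their first 2 intervals overlapped. In genes of at least 50 kb, the member density over 5 equal parts of the body, from its start, was 41.2, 33.5, 26.7, 23.2 and 19.2 per Mb. By distance from the nearest TSS of any gene, 6314 member regions lay at 5 to 10 kb, 6593 at 10 to 20 kb, 6324 at 20 to 50 kb, 2230 at 50 to 100 kb and 811 farther away. The rule cut through a continuous distribution, with 1848 otherwise eligible regions in the last 1000 bp below the limit and 1586 member regions in the first 1000 bp above it.

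**Figure D1:**
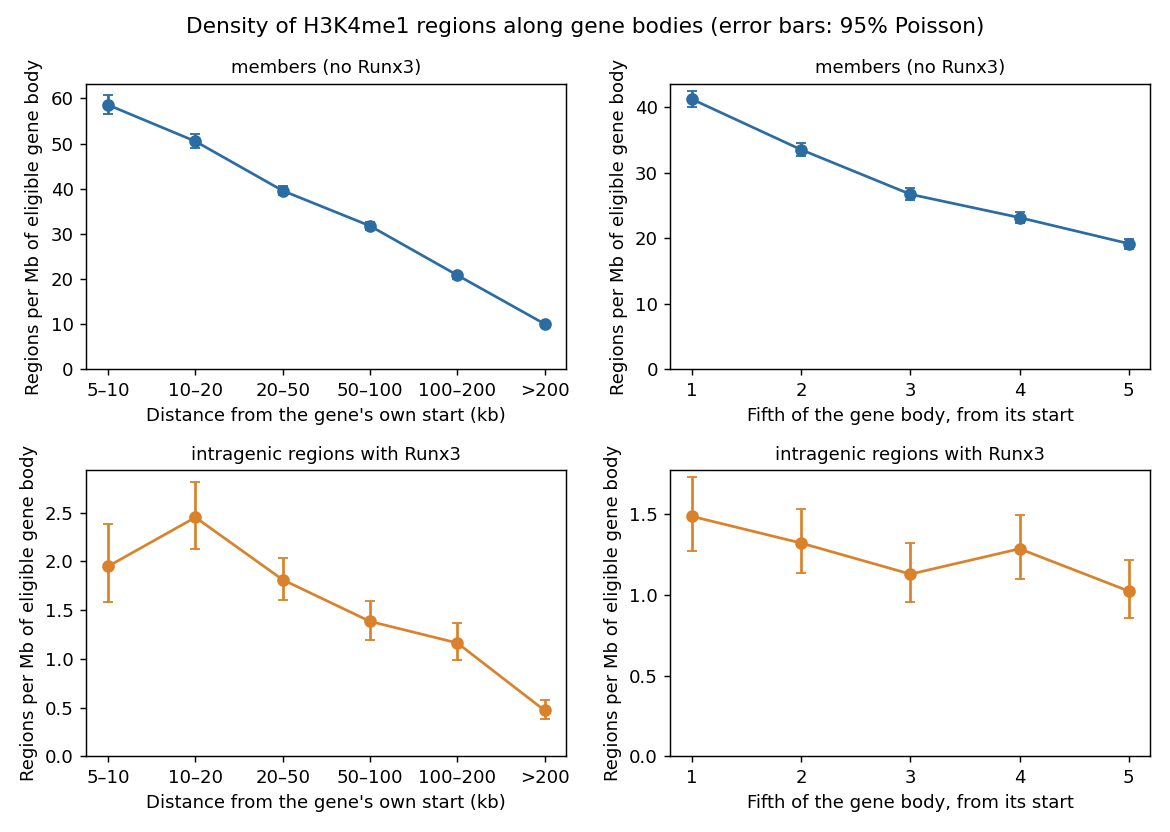
Regions per Mb of eligible gene body by distance from the start of the gene (left) and by 5 equal parts of bodies of at least 50 kb (right), for member regions (blue) and intragenic regions with Runx3 (orange), with exact Poisson 95% intervals as bars. Member density went from 58.6 to 10.1 per Mb over distance and from 41.2 to 19.2 over the 5 parts.

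First introns, which often hold enhancers, carried more member regions than their length. They held 8496 (38.1%, Wilson interval 37.5 to 38.8%) on 22.3% of the eligible length, or 51.1 per Mb (interval 50.01 to 52.2). Later introns held 12870 (57.8%) on 73.1% of the length, or 23.7 per Mb (23.3 to 24.1). Coding exons held 411 midpoints and untranslated or non-coding exons 495, at 24.4 and 29.1 per Mb. Regions with Runx3 were found less often in first introns, 309 of 1013 (30.5%), and the odds for member regions were 1.41-fold higher (95% interval 1.23 to 1.61, p = 7.63e-07 by two-sided Fisher's exact test, adjusted p = 3.05e-06 over 4 features).

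A minority of genes held all member regions. Of 22350 protein-coding genes 14415 had eligible length, and 5214 of these (36.2%) held a member region. At least 5 were held by 1448 genes, 10 or more by 578 and 20 or more by 132. Overall there were 2.99 member regions per 100 kb. Among the 6776 genes with at least 20 kb of eligible length, 2988 (44.1%) held none, and the median was 1.25 per 100 kb. Genes with more member regions more often held a Runx3-bound region in their body, from 5.51% of genes without one to 13.6% with 1, 18.6% with 2 to 4, 32.0% with 5 to 9 and 54.0% with 10 or more. Their median eligible length moved along with this, from 10.5 kb to 128 kb, and its part in the difference was not tested.

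The genes with most member regions included chromatin, signalling and lymphocyte transcription factor genes. Gm20388 came first with 207, but its annotated body spans 4.43 Mb and other genes, and Fgfr2 held 76 over 3.01 Mb. Without these 2 bodies 22130 member regions were left. Arid1b, which encodes a subunit of the SWI/SNF chromatin remodeller, held 76 in 316 kb of eligible length (24.03 per 100 kb, Poisson interval 18.9 to 30.1). Lpp, a LIM-domain gene, held 66. Eif4e3, which encodes a cap-binding protein and whose body overlaps Foxp1, held 53. Prkce (a protein kinase C) held 50, Rere (a transcriptional corepressor) 49, Asap1 (an Arf GTPase regulator) 48 and Cux1 (a homeodomain factor) 48. Bach2, a repressor that restrains effector differentiation, held 46, Akap13 45, Foxp1, which keeps T cells quiescent, 45, Bcl2, the survival gene, 44, Inpp4b 44 and Med13l 44. Bcl2 was the densest of these 15, with 27.1 per 100 kb and 46.9% of its eligible length covered by member regions.

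Density per length brought up other genes. Among genes with at least 20 kb of eligible length, Pik3cd, which encodes the leukocyte PI3-kinase subunit p110δ, was first with 11 member regions in 23.5 kb (46.8 per 100 kb, Poisson interval 23.4 to 83.8). Il6ra, the receptor of interleukin 6, followed with 16 (41.2 per 100 kb, 23.5 to 66.9), and Ciita, the MHC class II transactivator used by antigen-presenting cells, with 13 (39.7, 21.1 to 67.8). Bcl11b, the factor that commits cells to the T lineage, held 33 in 88.0 kb (37.5 per 100 kb, 25.8 to 52.7), and they covered 69.5% of its eligible length. Pik3r1, a PI3-kinase regulatory subunit, held 23 (36.0 per 100 kb) and Fryl 17 (35.7). The first 15 also included Plekho2, Ube2d3, Ythdf2, Rab3ip, 5730508B09Rik, Wnk1, Bend5 and Ctse, with 8 to 11 member regions each. The intervals of all 15 genes overlapped, so that their order is not resolved.

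The spread of member regions along the gene body differed between genes. In Bach2 they ran from 33.1 to 326 kb from the gene start with a median position of 151 kb, between 393 and 6235 bp wide. In Bcl11b, a much shorter gene of 93.2 kb, the 33 regions ran from 6.22 to 84.0 kb and were 455 to 6715 bp wide. No Runx3-bound region touched Bcl11b, whereas 7 touched Lef1, 7 touched Runx1, 5 touched Bach2, 2 touched Fyn and 1 touched Foxp1. In Lef1, member regions stood among 8 intragenic regions that overlapped Runx3. In Bank1, which encodes a B-cell scaffold protein, 91.2% of the 34 member regions lay in the first part of the body up to its middle, against 48.5% in Bcl11b.

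**Figure D2:**
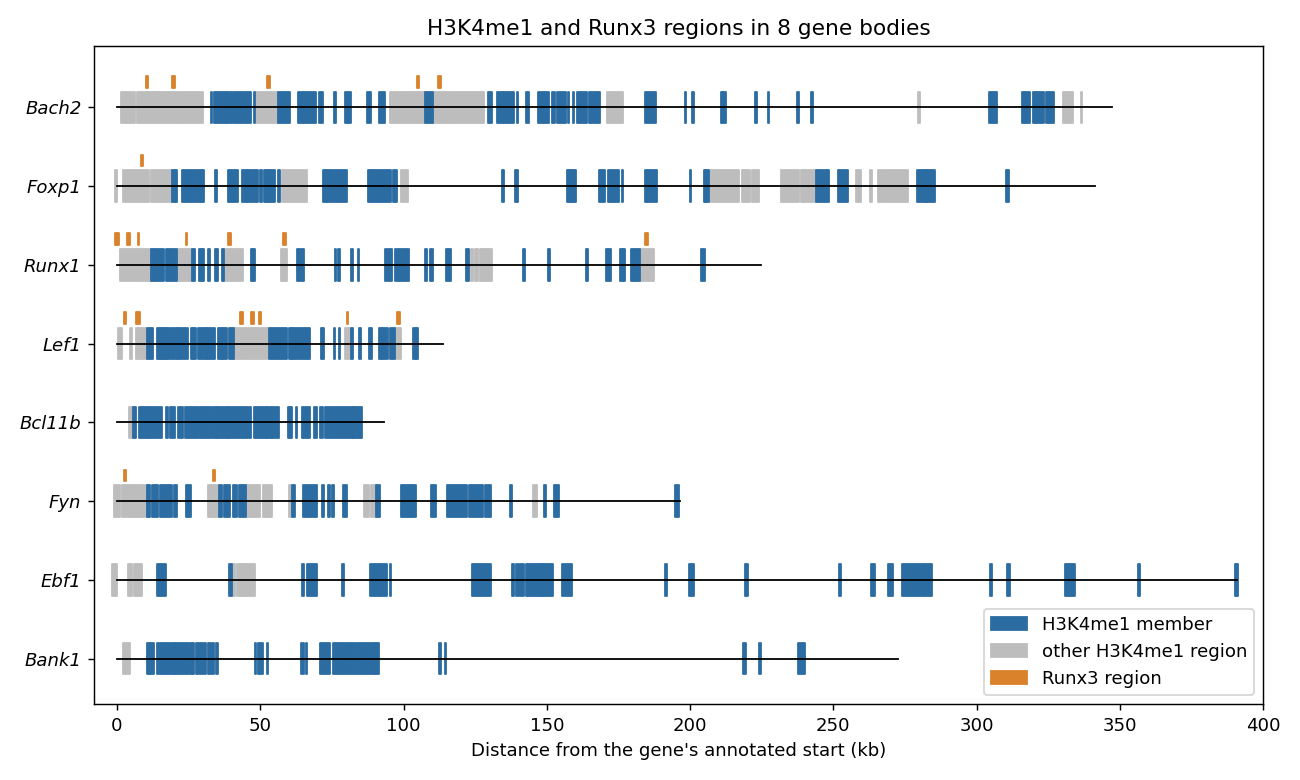
H3K4me1-marked regions along 8 genes, by distance in kb from the annotated start, with member regions in blue, other H3K4me1-marked regions in grey and Runx3-bound regions in orange above them. The black line is the gene body. Bcl11b, Ebf1 and Bank1 show no Runx3-bound region, and Bcl11b is marked along most of its 93.2 kb.

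Gene lists were compared by the number of genes with a member region and by the pooled density, beside the 36.2% and 2.99 per 100 kb of all genes. The shares were not adjusted for gene length. Median eligible length was 17.8 kb over all genes and 80.9 kb for T-lineage transcription factors. It was 65.8 kb for chromatin regulators, 42.3 kb for T-cell receptor signalling and 39.3 kb for B-cell genes. All 28 genes with eligible length among the T-lineage transcription factors held a member region (14.0 per 100 kb, Poisson interval 12.7 to 15.4). Bach2, Foxp1, Runx1 (36), Lef1 (34), Bcl11b and Tcf12 (27) led. Gata3, Cbfb and Tcf7, with 1 each, were the lowest, on 11.6, 30.5 and 12.1 kb. Runx3 itself held 5 in 32.2 kb. Among genes of T-cell receptor signalling, 22 of 28 held a member region (13.4 per 100 kb). Fyn, a Src-family kinase of the receptor, led with 32, and further down came the ubiquitin ligase Cbl with 19, Cblb with 18, the zeta chain Cd247 with 17 and the kinase Prkcq with 15. Vav1, with 26.3 kb of eligible length, held 0, as did Csk, Plcg1, Cd3e, Lat and Cd3d, of which the last 2 had under 1 kb. Vav1 and Csk each held 1 region among the widest that were left out.

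Genes of effector function and of receptors were shorter. Of 12 effector genes 7 held a member region, and 25 of the 38 regions were in Zeb2, which encodes a transcription factor that promotes terminal effector differentiation. The pooled density of this list, 13.6 per 100 kb, thus rests largely on Zeb2, and the median over its genes was 4.33. Prdm1, which encodes Blimp-1, held 4, Klrk1, the NKG2D receptor, 3, and Prf1, Gzma, Eomes, Fasl and Klrg1 held 0 on 1.43 to 7.29 kb. Among co-stimulatory and inhibitory receptors 15 of 17 held one. Cd226, an activating receptor, held 18 and Btla, an inhibitory one, 5, while Ctla4 and Pdcd1 held 0 on 5.56 and 9.25 kb. Among cytokine receptors 14 of 21 held one, led by Tgfbr3 (26), Il6ra (16) and Tgfbr2 (15), the signalling receptor for TGF-beta. Il6st and Il18rap held 0 on 26.9 and 21.3 kb, with no H3K4me1-marked region in this length, while Il18r1 held 0 on 29.8 kb because its 3 regions all overlapped Runx3.

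Chromatin regulators held a member region in 27 of 30 genes (11.3 per 100 kb), with Arid1b first, and Chd7 (27), Hdac4 (21), Crebbp (17) and Hdac9 (14) among those behind it. Chd4, Hdac7 and Mll2 held 0, and Hdac7 held 1 region that overlapped Runx3 and another among the widest that were left out.

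Among B-cell genes a member region was held by 14 of 15 (12.5 per 100 kb, Poisson interval 10.6 to 14.6). With every intragenic region counted, whatever its width or Runx3 overlap, the density was 12.8 for B-cell genes and 15.4 for T-cell receptor signalling, a difference that was not tested. Ebf1 held 35, Bank1 34, Bcl11a 16, Ralgps2 15, Pax5, the factor that commits cells to the B lineage, 12, and Lyn, a kinase of the B-cell receptor, 11. No Runx3-bound region touched Ebf1 or Bank1. Myeloid genes held one in 6 of 9 (4.43 per 100 kb), with Mrc1 (7) and Itgam (5) first and Emr1, with 120 kb of eligible length, at 0. Neuronal genes formed the low end. Magi2 held 9, and 12 of 20 held 0, which gave 0.103 per 100 kb over genes with a median of 1074 kb of eligible length. The longest genes without a member region included Dmd, Lrp1b, Csmd1, Ctnna3, Pcdh15, Il1rapl1 and Lrrc4c. For Dmd, the muscle dystrophin gene, 0 on 2112 kb allows a density of up to 0.175 per 100 kb (upper Poisson limit).

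**Figure D3:**
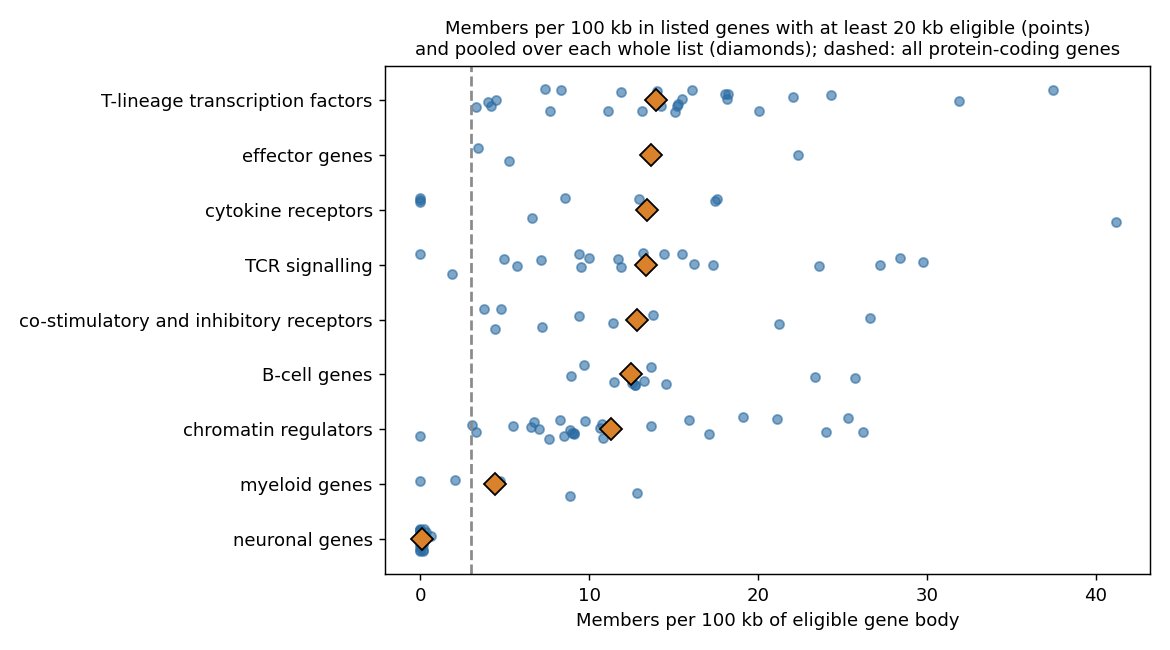
Member regions per 100 kb of eligible gene body for each listed gene with at least 20 kb (blue points, jittered in height) and pooled over each whole list (orange diamonds). The dashed line is the 2.99 per 100 kb of all protein-coding genes. The B-cell list, at 12.5, stands beside the T-cell lists at 12.9 to 14.0, and the neuronal list at 0.103. The effector diamond rests largely on Zeb2.

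The sequence around the midpoints, which the choice of regions did not use, was compared with windows of 200 bp lying 5 kb upstream of each region, in 22259 pairs without unknown bases. The motifs searched on both strands were RUNX and ETS as above, AP-1 (TGACTCA or TGAGTCA), TCF/LEF (CTTTGAA or CTTTGAT), E-box (CACCTG or CACGTG or CAGCTG or CAGGTG), the motif of GATA factors (AGATAA or AGATAG or TGATAA or TGATAG) and that of KLF/SP factors (CCNCNCCC). An ETS match was present in 51.2% of member regions and 42.7% of flanks, with 1.41 times as many pairs matched only at the midpoint as only at the flank (exact McNemar test, adjusted p = 2.50e-71 over 7 motifs). A RUNX match was present in 33.3% and 28.2% (ratio 1.27, exact McNemar adjusted p = 1.90e-31). These regions overlapped no called Runx3-bound region, but binding too weak to be called is possible. By the paper, background kept some Serpin-gene regions with apparent Runx3 binding in resting CD8-TC from being called. E-boxes, bound by bHLH proteins such as Tcf12, were present in 27.7% and 23.5% (ratio 1.25, exact adjusted p = 3.20e-24). AP-1, the motif of Fos and Jun, was present in 4.33% and 3.52% (ratio 1.24, exact adjusted p = 1.95e-05). TCF/LEF (8.18% and 8.04%, exact adjusted p = 0.699), GATA (30.7% and 31.4%, p = 0.195) and KLF/SP (14.9% and 14.9%, p = 0.904) did not pass. Of the flanks, 29.5% shared a base with another H3K4me1-marked region.

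**Figure D4:**
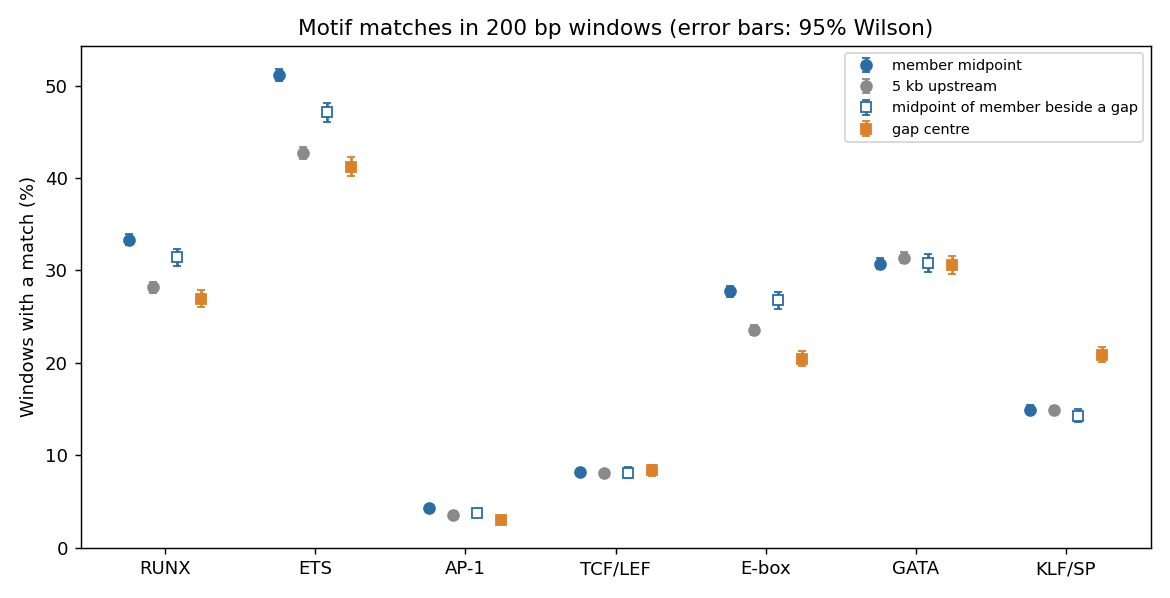
Percent of 200 bp windows with a match to each of 7 motifs, at the midpoints of all member regions (blue circles), 5 kb upstream (grey), at midpoints of member regions beside a gap (open squares) and at gap centres (orange squares), with Wilson 95% intervals. ETS and RUNX stand higher at midpoints than in both other places, and KLF/SP stands highest in gaps at 20.9%.

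The RUNX excess lay mainly in the variants TGTGGT and TGTGGC, and no variant was tested alone. TGTGGT was found in 18.3% of member windows and 15.4% of flanks, TGTGGC in 15.6% and 12.4%, TGCGGT in 2.02% and 1.59% and TGCGGC in 1.68% and 1.52%. In intragenic regions with Runx3 a RUNX match was present in 40.1%, an odds ratio of 0.748 for member regions (interval 0.657 to 0.850), given without a test because Runx3 overlap chose the sets. Among regions of 500 to 1500 bp in both sets, the odds ratio was 0.846 (interval 0.653 to 1.10). TGTGGT alone was found in 25.8% of all intragenic regions with Runx3. Neither ETS (51.2% against 50.6%, odds ratio 1.02, interval 0.901 to 1.16, Fisher's exact adjusted p = 0.877) nor AP-1, E-box, GATA or KLF/SP passed between the sets, and TCF/LEF was at 8.19% against 10.4% (odds ratio 0.771, interval 0.626 to 0.949, adjusted p = 0.0584). These intervals leave room for differences in either direction for ETS. Along the sequence, RUNX matches in member regions numbered 2.15 per kb in the step of 100 bp left of the midpoint and 1.72 in the leftmost step, centred at -2450 bp. Regions with Runx3 had 2.80 and 1.55 at the same places.

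**Figure D5:**
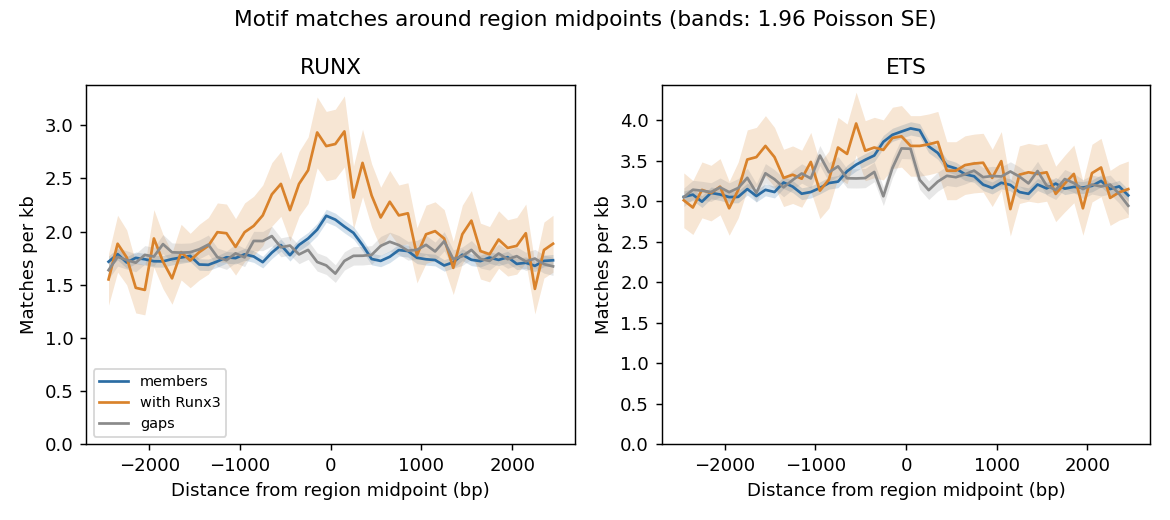
RUNX (left) and ETS (right) matches per kb in steps of 100 bp around the midpoints of member regions (blue), intragenic regions with Runx3 (orange) and gaps (grey), with bands for the 95% Poisson counting error. For RUNX, member regions reach 2.15 per kb at the centre against 2.80 with Runx3, and gaps stand at 1.68.

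Among the 6-mers, pooled over both strands, 562 (27.0%) were more frequent at midpoints than in flanks by the exact McNemar test with adjustment over all of them. Ranked against 6-mers of the same GC and CpG number, the leading ones that passed were ACTTCC (17.6% of midpoints, 11.7% of flanks), AGGAAG (31.1% and 22.7%), CAGGAA (26.6% and 19.6%) and CACTTC (15.1% and 11.1%). The first 3 hold the GGAA core of ETS sites on one strand or the other. ACAGGA (21.1% and 16.1%) and the E-box CAGCTG (12.1% and 9.02%) were also among the first 20.

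Base composition differed from that of regions between genes. The median GC content near the midpoint was 46.5% in member regions, 44.5% in their upstream flanks and 47.0% between genes. It reached 46.5% in 50.2% of member regions and 54.7% of regions between genes (odds ratio 0.834, 95% interval 0.801 to 0.868, p = 9.84e-19 by Fisher's exact test). At least 2 CpG were present in 56.2% and 61.1% (odds ratio 0.814, 95% interval 0.781 to 0.848, p = 5.70e-23 by Fisher's exact test). In regions with Runx3 the share was 62.3% (odds ratio 0.775, 95% interval 0.681 to 0.883). No test is given there, because Runx3 overlap chose the sets and the RUNX variants TGCGGT and TGCGGC hold a CpG. GC content did not pass against regions with Runx3, of which 49% reached 46.5% (odds ratio 1.05, 95% interval 0.926 to 1.19, p = 0.46 by Fisher's exact test). KLF/SP matches, which are rich in C, were likewise fewer in member regions, 14.9% against 17.9% between genes (odds ratio 0.807, interval 0.764 to 0.851, Fisher's exact adjusted p = 6.02e-14). ETS matches were at 51.2% against 53.5% (odds ratio 0.910, adjusted p = 1.36e-05), RUNX at 33.3% against 34.4% (0.953, adjusted p = 0.0460) and GATA at 30.7% against 29.7% (1.05, adjusted p = 0.0460), all by Fisher's exact test.

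Gaps between neighbouring H3K4me1-marked regions were examined because nucleosome-free sites bound by factors can appear as dips in a histone mark. There were 9029 gaps of up to 1000 bp beside a member region, of which 36 (0.399%) touched a Runx3-bound region, and the other 8993 had a median width of 209 bp. Of these, 2815 measured up to 100 bp and 1575 over 100 and up to 200 bp. Windows of 200 bp at gaps narrower than that took in H3K4me1-marked sequence. Mean GC content was 43.2% at gap centres, 45.4% at the member regions beside them and 44.6% upstream, and its part was not tested. Of the 7 motifs, 4 were less frequent at gap centres than at the midpoint of the member region beside them. ETS was at 41.2% against 47.1%, RUNX at 26.9% against 31.4% and E-box at 20.5% against 26.8% (exact McNemar adjusted p = 8.86e-15, 5.74e-11 and 2.58e-23). AP-1 was also lower, 3.002% against 3.79% (exact McNemar adjusted p = 0.00519), but with windows of 100 bp it did not pass (adjusted p = 0.403). KLF/SP was higher in gaps, 20.9% against 14.3% (exact McNemar adjusted p = 1.06e-31). TCF/LEF (8.36% against 8.12%, exact McNemar adjusted p = 0.664) and GATA (30.6% against 30.8%, adjusted p = 0.720) did not pass. Compared with windows 5 kb upstream, E-box was lower in gaps (20.4% against 24.01%, exact McNemar adjusted p = 2.62e-08) and KLF/SP higher (20.9% against 15.2%, adjusted p = 1.70e-22). There gap centres did not pass for RUNX (26.9% against 28.1%, exact McNemar adjusted p = 0.108) or ETS (41.3% against 42.5%, adjusted p = 0.108), nor for AP-1, TCF/LEF or GATA.

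Repeated sequence moved with the gaps. Windows counted as repeated if 50% or more of their 24-mers were present in 10 or more copies genome-wide. This held for 11.8% of gap centres (Wilson interval 11.2 to 12.5%), for 0.856% of the member midpoints beside them (exact McNemar p = 2.52e-240) and for 4.41% of windows 5 kb upstream of the gaps. Over all member regions it was 0.530%, against 4.98% in their upstream flanks (exact McNemar p = 6.11e-206). The authors kept uniquely aligned reads, and the part of this step in where regions end was not tested. Without repeated windows 21041 pairs of midpoint and flank and 7877 pairs of gap and member region were left. There ETS was at 51.4% against 43.4% of flanks, and RUNX at 26.2% in gaps against 31.6% in member regions (exact McNemar adjusted p = 2.28e-60 and 1.38e-13). GATA, at 32.9% in gaps against 30.7% (exact McNemar adjusted p = 0.00368), and TCF/LEF, at 9.001% against 8.07% (adjusted p = 0.0401), were higher in gaps once these windows were left out. Over all gaps, repeated windows included, the 6-mers that led held a CpG, such as GTTCGA (3.17% of gaps, 1.28% of member regions), and CCCCCC was at 11.7% and 4.85% (exact McNemar adjusted p = 8.55e-17 and 2.39e-60).

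Motif content was also listed by width of the member region. RUNX matches near the midpoint were at 33.4% in member regions of 200 to 600 bp and 31.8% in those of at least 4000 bp, with 28.1% and 29.8% in their flanks. ETS matches, over the width classes of 200 to 600, 600 to 1000, 1000 to 2000, 2000 to 4000 and at least 4000 bp, were at 49.5%, 51.7%, 53.8%, 49.6% and 44.9%, with 41.9%, 43.6%, 41.8%, 44.2% and 41.8% in the flanks. The ETS share and its distance from the flank were thus greatest at 1000 to 2000 bp and least in the widest class. These shares are descriptions without a test.

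The member regions were not evenly distributed over chromosomes. Chromosome X held 368, or 10.7 per Mb of eligible gene body (Poisson interval 9.63 to 11.8), below all autosomes, which ranged from 22.5 (21.0 to 24.1) on chromosome 14 to 41.6 (39.5 to 43.7) on chromosome 11. Chromosomes 11 and 17 (39.2, 36.9 to 41.6) had overlapping intervals. Intragenic regions with Runx3 were also sparse on chromosome X, at 0.378 per Mb (0.201 to 0.646) against 0.879 to 1.99 on the autosomes.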

How the data were processed

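ChIP-seq reads of Runx3, H3K4me1 and NIS libraries from resting splenic CD8-TC were aligned by the authors to mm9 with ELAND (CASAVA 1.6 and 1.7 per the submitters' processing notes), and uniquely aligned reads of joined repeats were passed to MACS with NIS as control. The deposited values are start and end positions of regions without score, counts or normalization, so depth per region is unknown. Other steps were as follows. Regions were classified with GENCODE on NCBIM37, the same build as mm9. Starts were moved by 1 bp. Distances to a TSS or gene start were measured from midpoints. Those to the nearest Runx3-bound or other H3K4me1-marked region were measured between edges. Eligible length is gene body at least 5 kb from every TSS, without unknown bases. Motifs were searched in windows of 200 bp. Two-sided Fisher's exact and exact McNemar tests were used with Benjamini-Hochberg adjustment and a threshold of 0.05. Shares have Wilson, medians order-statistic and densities exact Poisson 95% intervals, which cover counting error only. Motif and 6-mer tests were tested on simulated data. Python 3.11.15, numpy 2.4.6, scipy 1.17.1, pandas 2.3.3 and matplotlib 3.10.9 were used.

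The member regions and gene lists were chosen with earlier results of these data known. Named genes were the 15 with most member regions, the 15 densest with at least 20 kb of eligible length, up to 6 genes per list with 5 or more member regions and up to 6 with none, and those of the 10 widest regions. Genes named beyond this rule (Cd3d, Cd8a, Cd8b1, Cd79a, Cd79b, Lyz2, Cd14, Csf1r and low counts within lists) were chosen after their values were seen. Repeated sequence, the downstream flank, long gene bodies, marker gene bodies and the addition of regions with Runx3 below the width limit were added after the data were examined. The TSS set was likewise added for the gene lists and chromosome X. The other alternatives concerned the Runx3 distance, the TSS set for other results, edge distance, gene containment, width cap, autosomes, merging, window size, flank distance and gap size. Some genes that these rules name and 1 gene list are not reported here.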

Additional observations from a re-analysis of the deposited data

How the results depend on the processing

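Over 39 results, 135 alternative values were computed, of which 43 were added after seeing the data. The reading held for 102 of them, 13 moved, 8 kept their direction and passed the threshold only there, 1 no longer passed and 11 changed direction, some of which also passed only there. The number of member regions (22272) was 13798 with neighbours within 1000 bp merged and 10191 at or above the median width, both by construction, and 21255 to 25578 otherwise. No paired analysis was possible because the repeats of each antibody were joined before calling, which also kept single repeats from being left out. The stricter list was made by width in the absence of scores. Where no region is listed, a mark or Runx3 binding too weak to be called cannot be told apart from none.

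Near midpoints the ratios for RUNX, ETS, AP-1 and E-box kept their reading. GATA (0.970) became stronger with 100 bp windows (0.935), 400 bp windows (0.946), flanks 10 kb away (0.925), flanks outside H3K4me1 (0.931) and the downstream flank (0.947). KLF/SP (1.00) became stronger with 400 bp windows (1.05) and reversed with 100 bp windows (0.978), flanks 10 kb away (0.987) and the downstream flank (0.984). TCF/LEF (1.02) reversed with flanks 10 kb away (0.978). The cause was not tested.

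Against regions with Runx3, searching whole regions gave odds ratios of 0.130 (RUNX, moved), 0.159 (ETS, reversed), 0.368 (AP-1, reversed), 0.329 (TCF/LEF, stronger), 0.258 (E-box, reversed), 0.230 (GATA, reversed) and 0.381 (KLF/SP, reversed). Member regions are narrower than those with Runx3, and a shorter sequence holds fewer matches. In gaps AP-1 weakened with 100 bp windows (0.876), TCF/LEF reversed there (0.971) and became stronger without repeated windows (1.13), and GATA reversed without them (1.11), the cause not tested.

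With groups counted in place of regions, 945 genes held 5 or more (1448 in the report), and densities per 100 kb were 7.30 (T-cell receptor signalling), 6.72 (T-lineage transcription factors), 7.90 (effector), 7.62 (co-stimulatory and inhibitory receptors), 8.20 (cytokine receptors), 6.05 (chromatin) and 6.20 (B-cell genes), beside 2.06 for all genes. With every intragenic region at least 5 kb from a TSS counted, whatever its width or Runx3 overlap, T-cell receptor signalling moved to 15.4 and T-lineage transcription factors to 15.8, cytokine receptors were at 15.6 and B-cell genes at 12.8, both within their intervals, and all genes were at 3.21. With Runx3-overlapping regions added and the widest still left out they were at 14.4, 14.9, 15.01, 12.6 and 3.15. The values for all genes add up gene bodies, so a region in overlapping genes counts more than once, and member regions alone are then at 3.01 in place of 2.99.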
